A study of Homo sapiens with 6 samples.

Results

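Semaphorins, plexins, neuropilins, ephrins and Eph receptors are the ligands and receptors of contact-dependent and short-range guidance signalling. The 51 genes described here are the protein-coding genes of the count table whose symbols belong to SEMA3 to SEMA7, PLXNA to PLXND, NRP1 and NRP2, EFNA and EFNB, or EPHA and EPHB, of 30230 genes in the table. They comprised 18 semaphorins, 11 plexins and neuropilins, 8 ephrins and 14 Eph receptors, all taken by symbol. The group, and the lists of other genes used below, were chosen with earlier results of these data known. The comparison asks how the transcripts of these ligands and receptors differed after silencing of FSCN1, which encodes fascin, a protein that bundles actin filaments.

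Polyadenylated RNA was sequenced from A549 cells, an established human lung adenocarcinoma line, in 6 libraries. The control group (NC) and the silenced group (siFSCN1) had 3 libraries each. Control cells were given a scrambled siRNA as the methods describe it, although the treatment label names a control plasmid, and silenced cells were given an siRNA against FSCN1. Several siRNAs were designed and a single one was used for sequencing, so the loss of FSCN1 and any other action of that siRNA cannot be told apart. The study calls the replicates biological, and nothing else says whether they were separate cultures, so the p-values measure the spread between these libraries.

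The libraries held between 27967301 and 36560919 counts. FSCN1 itself lay between 44.98 and 47.24 FPKM in NC and between 2.82 and 4.46 FPKM in siFSCN1 (log2 fold change -3.89, SE 0.094, edgeR adjusted p = 8.10e-16). FPKM is the authors' count of fragments scaled to gene length and to library depth, and it is the scale used below for levels. Fold changes are log2 ratios of siFSCN1 to NC from edgeR's quasi-likelihood test on the counts, with TMM scaling, which sets the level of each library by the bulk of its genes. Adjusted p-values are Benjamini-Hochberg values over the 17076 genes tested. Rose and fell are used of genes with an adjusted p under 0.05, and a gene was called when it had also changed by at least 2-fold. The scales differ, since over 9965 genes with at least 1 FPKM in every library the ratio of FPKM was at the median 1.12 times the TMM ratio (0.17 on the log2 scale). A small rise in FPKM can therefore be no rise on the tested scale, and equal FPKM can be a fall. Of the marker genes of A549 and simple epithelium, all 5 were expressed, and their summed level ran from 5710 to 6200 FPKM in NC and from 4740 to 5110 FPKM in siFSCN1. They did not move alike. KRT7 (log2 fold change -1.19, called lower), KRT18 (-0.99) and KRT8 (-0.88) fell, EPCAM rose (0.29) and AKR1B10 did not pass. Sums for the endothelial and fibroblast markers did not exceed 0.28 FPKM in any library. Of the 3 immune markers CD3E and PTPRC were at or near 0, and CD14 gave nearly all of a sum of 2.79 to 2.99 FPKM in NC and 3.86 to 4.83 FPKM in siFSCN1. All 3 neuronal markers (SNAP25, RBFOX3 and SYT1) rose, from a sum of 2.63 to 3.04 FPKM to one of 7.60 to 7.71 FPKM, and their part in the results was not tested.

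Eph receptors form the largest family of receptor tyrosine kinases and bind ephrins held on the surface of a neighbouring cell. The A ephrins are held by a lipid anchor and bind mainly EphA receptors, whereas the B ephrins span the membrane and bind mainly EphB receptors, and both partners can signal. Semaphorins are secreted (class 3) or membrane-bound (classes 4 to 7) and act through plexins, whose intracellular part acts on small GTPases. Most class 3 semaphorins need a neuropilin as co-receptor, and the pathways end on the actin cytoskeleton. All 4 families are also expressed in epithelia and carcinomas, where they have been studied for their part in cell adhesion and migration.

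The largest differences on the Eph side were in EPHA2, the main Eph receptor of these cells, and in the ephrins EFNA1 and EFNB2. EFNB2, which was scarce, fell by a log2 fold change of -1.43. EPHA2 fell too, while EFNA1, a ligand of EPHA2, rose. The 250 bases before the start of each gene are shown for this pair, since they moved in opposite directions and were the members whose calls held under all 17 alternative analyses. Both come from RefSeq (GRCh38.p14), written 5′ to 3′ on the strand of the gene, at chr1:155127626-155127875 on the plus strand for EFNA1 and chr1:16156070-16156319 on the minus strand for EPHA2. Capitals mark matches, on either strand, to a GC box (GGGCGG) or to a cAMP response element (TGACGTCA).
EFNA1: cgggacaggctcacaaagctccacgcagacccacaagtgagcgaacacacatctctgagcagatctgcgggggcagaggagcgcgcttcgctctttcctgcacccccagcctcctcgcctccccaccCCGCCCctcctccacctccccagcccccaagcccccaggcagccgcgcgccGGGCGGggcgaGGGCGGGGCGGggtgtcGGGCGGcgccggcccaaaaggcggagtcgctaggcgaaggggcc
EPHA2: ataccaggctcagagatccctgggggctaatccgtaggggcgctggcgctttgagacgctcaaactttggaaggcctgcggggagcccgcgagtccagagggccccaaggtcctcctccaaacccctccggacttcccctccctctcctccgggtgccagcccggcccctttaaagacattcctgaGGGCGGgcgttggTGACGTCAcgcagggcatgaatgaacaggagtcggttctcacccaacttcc

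The EFNA1 stretch held 5 GC boxes at a GC content of 73.2%, and the EPHA2 stretch 1 GC box and 1 cAMP response element at 63.2%. A GC box was found in 42.6% of all 35116 RefSeq promoters of this length and in 52 of the 70 promoters listed for 45 of the members (74.3%). Some promoters listed for the same gene overlap, as for EPHB2 and SEMA3B, so part of the sequence was counted more than once. A cAMP response element was found in 1.65% of all promoters and in 3 of the 70 (4.29%), namely those of EPHA2, SEMA3B and SEMA4C. An AP-1 element (TGACTCA) occurred in 4.2% of all promoters and in none of the members', and a TATA box (TATAAA) in 10.7% and in 3 of the 70 (4.29%). No motif contains another, adjoining GC boxes can share bases, and a match of letters is not evidence of binding.

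Of the 51 members, 40 had enough counts to be tested. Of these, 15 rose, 12 fell and 13 did not pass the test, which is 37.5% and 30.0% against 35.1% and 33.2% of all genes tested. At 2-fold, 5 members were called higher and 4 lower. The 12.5% called higher compares with 11.7% of all genes tested and 8.34% of the 13606 protein-coding genes tested. The 10% called lower compares with 4.85% of all genes and 5.01% of protein-coding genes, and rests on 4 genes. The TMM-scaled counts of the groups, as CPM (counts scaled to library size), did not overlap for 27 members, or 67.5%, against 71.3% of all genes. The median log2 fold change of the tested members was 0.04, beside 0.03 for all genes and -0.02 for protein-coding genes. Apart from the 10% called lower, these shares lie near those of all genes tested. The share called lower stands above the background but rests on 4 genes, too few to judge. What follows therefore describes which members moved, and not a movement of the group. The values are from bulk RNA, in which fewer cells expressing a gene and less RNA per cell cannot be told apart.

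**Figure D1:**
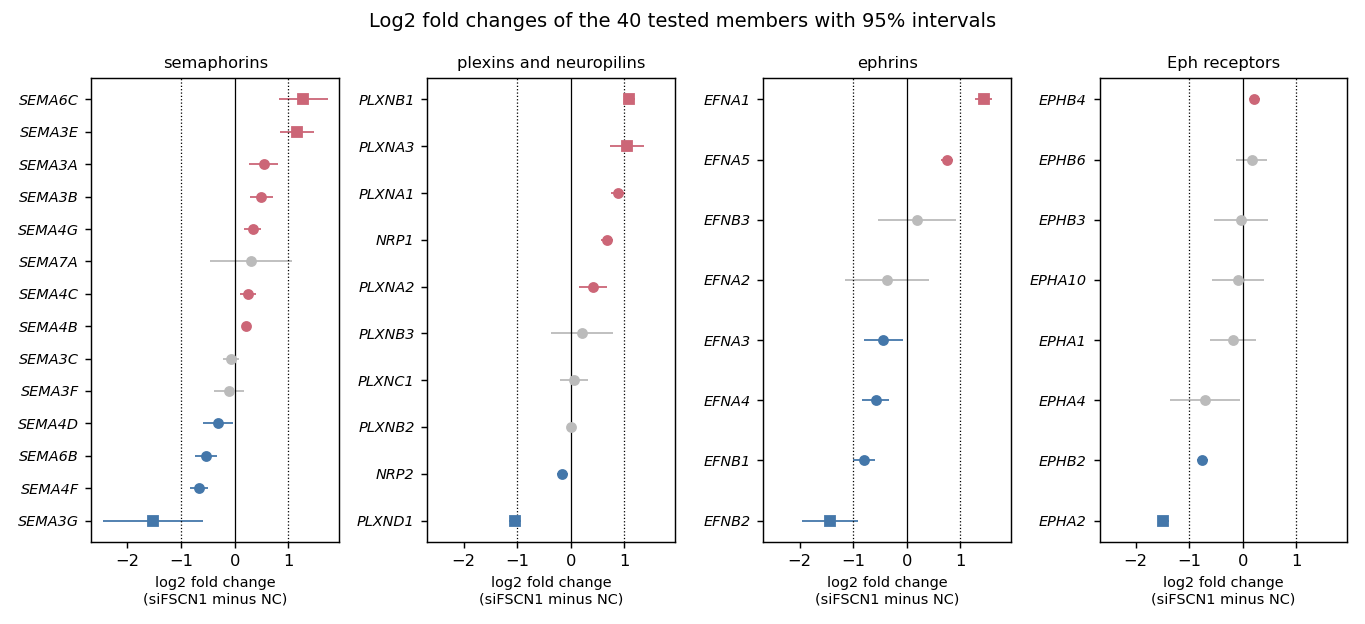
Log2 fold changes (siFSCN1 minus NC, horizontal axis) of the 40 tested members in 4 families, with 95% intervals from edgeR. Red marks the 15 that rose, blue the 12 that fell and grey the 13 that did not pass, squares mark the 9 called members, and dotted lines stand at 2-fold. The calls run in both directions within semaphorins, plexins and ephrins, and the only called Eph receptor is EPHA2, on the lower side.

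Ephrins were divided. Of the 8, all tested, EFNA1 and EFNA5 rose and EFNA3, EFNA4, EFNB1 and EFNB2 fell, while EFNA2 and EFNB3 did not pass. EFNA1 (ENSG00000169242.12, chromosome 1, 155127876 to 155134899, plus strand, GRCh38) had 3.47, 3.14 and 3.23 FPKM in NC replicates 1 to 3 and 9.83, 10.26 and 9.76 FPKM in siFSCN1 replicates 1 to 3. Every silenced library thus lay far above every control library. The means were 3.28 ± 0.171 and 9.95 ± 0.271 FPKM (SD, n = 3 each), and the change was 2.70-fold (log2 fold change 1.43, SE 0.078, edgeR adjusted p = 1.42e-11). EFNA5 (chromosome 5, 107376894 to 107670937, minus strand), which can bind EPHB2 as well as EphA receptors, had 5.93, 6.20 and 6.46 FPKM in NC and 11.26, 11.77 and 12 in siFSCN1. The groups were well apart, with a log2 fold change of 0.75 (SE 0.051, edgeR adjusted p = 3.54e-10), which is 1.68-fold and under the 2-fold limit.

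EFNA4 (chromosome 1, 155063737 to 155069553, plus strand) had 4.79, 5.88 and 6.05 FPKM in NC and 4.56, 4.13 and 3.87 in siFSCN1. Its groups did not overlap, though NC replicate 1 came close to siFSCN1 replicate 1, and the gene fell with a log2 fold change of -0.58 (SE 0.12, edgeR adjusted p = 3.08e-04). It was the second among the A ephrins in NC and the third in siFSCN1. EFNA4 and its neighbour EFNA3 share a same-strand readthrough gene, and reads from these 3 genes could have been split between them in the counting. EFNA3 itself was low, at 1.07 ± 0.0462 FPKM in NC and 0.883 ± 0.0929 in siFSCN1 (SD, n = 3 each). Its fall of 0.44 on the log2 scale (SE 0.17, edgeR adjusted p = 0.0302) did not pass under 9 of the 17 alternatives. A miss under glmTreat, which tests against a 2-fold change, is not counted.

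Of the B ephrins, which span the membrane, EFNB1 and EFNB2 fell and EFNB3 did not pass (log2 fold change 0.19, edgeR adjusted p = 0.645). EFNB1 (chromosome X, 68829021 to 68842160, plus strand), which provided 87.4% of the B ephrin FPKM in NC and 86.4% in siFSCN1, had 3.41, 3.58 and 3.86 FPKM in NC and 2.28, 2.40 and 2.31 in siFSCN1. All 3 silenced libraries were below all 3 controls, and the log2 fold change was -0.80 (SE 0.096, edgeR adjusted p = 7.32e-07). EFNB2, the partner of EPHB4 in vessel formation, was scarce, with 53, 73 and 61 counts in NC and 22, 30 and 27 in siFSCN1. It was called lower without overlap between the groups (log2 fold change -1.43, SE 0.25, edgeR adjusted p = 5.58e-05), at a mean level of 0.340 FPKM in NC, and missed 2-fold in limma on log2(FPKM + 0.1) (-0.86) and log2(FPKM + 1) (-0.23). EFNB2 lay below the 0.5 FPKM that the naming rule asks of called members, as did SEMA6C, PLXNA3 and SEMA3G below, and these 4 are named because they were called, after their values had been seen.

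**Figure D2:**
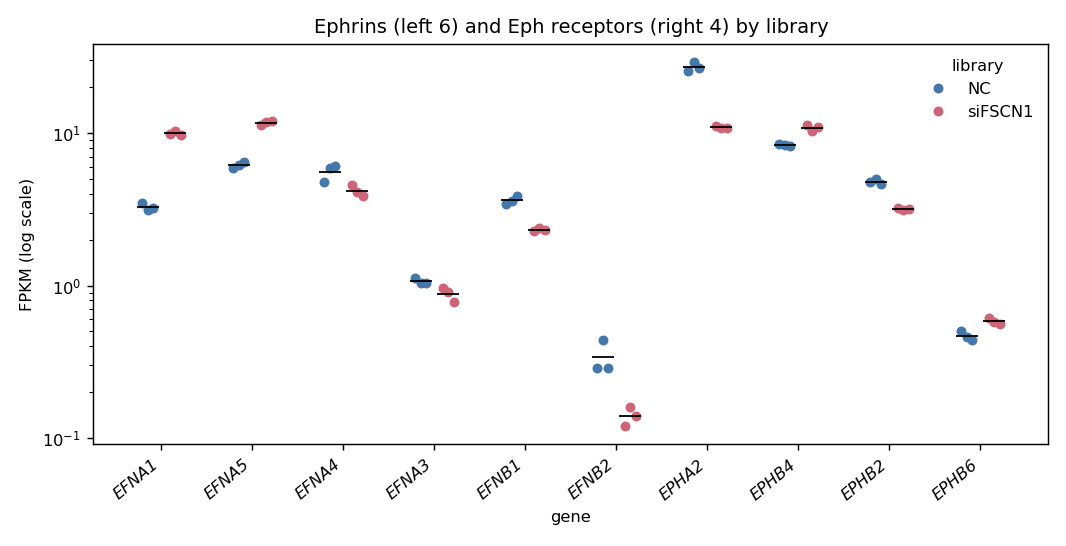
FPKM (log axis) in each of the 6 libraries for 6 ephrins and 4 Eph receptors, with a black line at each group mean of 3 libraries. EFNA1 and EFNA5 lie higher in siFSCN1, EPHA2, EPHB2, EFNB1 and EFNB2 lie lower, and EPHA2 and EPHB4, which are far apart in NC, lie at the same level in siFSCN1.

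Eph receptors were dominated by 3 genes. In NC the order of mean levels was EPHA2 (27.2 ± 1.78 FPKM), EPHB4 (8.35 ± 0.161) and EPHB2 (4.79 ± 0.189), with the other receptors under 0.5 FPKM. In siFSCN1 EPHA2 (10.9 ± 0.188 FPKM) and EPHB4 (10.9 ± 0.494) no longer differed beyond their spread, and EPHB2 stayed the third at 3.18 ± 0.0557 (SD, n = 3 in each case). Of the 8 receptors tested, 1 rose, 2 fell and 5 did not pass.

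EPHA2 (ENSG00000142627.13, chromosome 1, 16124337 to 16156069, minus strand), a receptor much studied in carcinoma cells, had 25.70, 29.19 and 26.81 FPKM in NC replicates 1 to 3 and 11.11, 10.78 and 10.79 FPKM in siFSCN1 replicates 1 to 3. The silenced libraries lay close together and far below every control. Its counts were 3907, 4004 and 4741 in NC and 1750, 1669 and 1707 in siFSCN1, a 2.80-fold fall (log2 fold change -1.49, SE 0.049, edgeR adjusted p = 2.17e-14). The antisense gene EPHA2-AS1 overlaps it on the opposite strand. EPHB2 (chromosome 1, 22710839 to 22921500, plus strand) had 4.75, 5 and 4.63 FPKM in NC and 3.23, 3.12 and 3.19 in siFSCN1. It fell in the same direction without overlap (log2 fold change -0.76, SE 0.049, edgeR adjusted p = 1.80e-10).

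EPHB4 (chromosome 7, 100802565 to 100827523, minus strand), the receptor of EFNB2, moved the other way. Its FPKM was 8.50, 8.37 and 8.18 in NC and 11.26, 10.31 and 11.02 in siFSCN1, and the TMM-scaled log2 fold change was 0.21 (SE 0.047, edgeR adjusted p = 5.85e-04). Part of the gap in FPKM is the difference between the scales given above. SLC12A9 overlaps EPHB4 on the opposite strand and also rose, by 0.20 on the log2 scale (edgeR adjusted p = 0.00656). The libraries were made with a kit that keeps the strand, but the sources used here do not give the strand option of the counter, so reads of such pairs may not have been told apart. Of the 40 tested members, 19 had an opposite-strand gene overlapping them, and so did 5 of the 9 called among them. The share over all genes tested is not given here.

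The remaining tested receptors, EPHA1, EPHA4, EPHA10, EPHB3 and EPHB6, were all under 1 FPKM and did not pass. EPHA4 came closest, with 18, 24 and 32 counts in NC and 15, 19 and 17 in siFSCN1 (log2 fold change -0.71, SE 0.31, edgeR adjusted p = 0.0543). Its CPM did not overlap between the groups, but the interval of the fold change ran from -1.37 to -0.05.

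Summed over the family, Eph receptor transcripts went from 40.2, 44 and 40.9 FPKM in NC to 27.1, 25.7 and 26.5 FPKM in siFSCN1. The ratio of the means was 0.633 (exact permutation p = 0.1, two-sided). No lower p can come from 3 libraries a group, which holds for every exact p below. That ratio rested on EPHA2, since the sum over the other Eph receptors had a ratio of 1.07 in the deposited FPKM. This 1.07 is below the median shift between the scales and is not read as a rise. EPHA2 provided 65.3% ± 1.26 of the Eph receptor FPKM in NC and 41.3% ± 0.669 in siFSCN1, and EPHB4 20.1% ± 1.05 and 41.1% ± 0.811 (SD, n = 3 each). The sum of EphA receptors went from 27.8 ± 1.81 to 11.5 ± 0.246 FPKM, while that of EphB receptors was 13.9 ± 0.356 and 14.9 ± 0.527 FPKM, a ratio of 1.08 that is below the median shift between the scales. All 8 ephrins together went from 20.5 ± 0.896 to 29.6 ± 0.395 FPKM, a ratio of 1.44, and of 1.29 after TMM scaling (exact permutation p = 0.1).

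The balance of ligand to receptor within a library does not depend on library scaling. Summed A ephrins stood to summed EphA receptors as 0.598, 0.555 and 0.618 in NC and as 2.29, 2.41 and 2.35 in siFSCN1. All 3 control libraries thus held more EphA receptor than A ephrin transcript per length, and all 3 silenced libraries the reverse, a change of 3.98 times in the mean ratio (exact permutation p = 0.1). For the pair of EFNA1 and EPHA2 alone the ratio went from 0.121 ± 0.0137 to 0.914 ± 0.0344 (SD, n = 3 each). On the B side the ratio of ephrins to receptors moved in the opposite direction, from 0.298 ± 0.0239 to 0.181 ± 0.0118, again without overlap (exact permutation p = 0.1). Within the A ephrins EFNA1 went from 20.1% to 36.9% of the FPKM, EFNA5 from 37.8% to 43.4%, and EFNA4 from 33.9% to 15.5%.

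**Figure D3:**
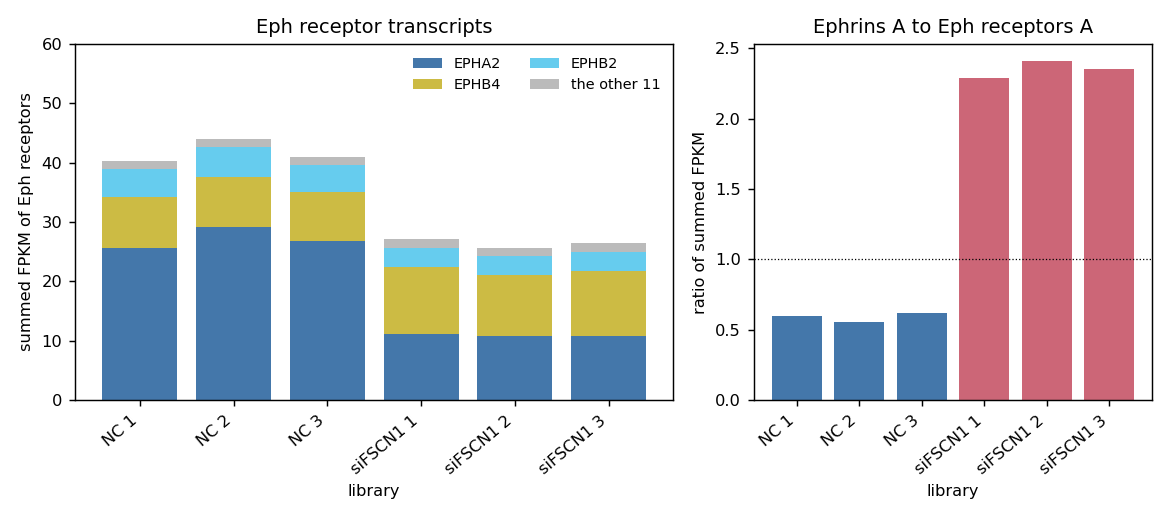
Left, summed FPKM of the Eph receptors in each library, stacked by EPHA2, EPHB4, EPHB2 and the other 11 receptors, of which EPHA8 has no FPKM. Right, the ratio of summed A ephrin to summed EphA receptor FPKM per library, with a dotted line at 1. The EPHA2 block shrinks in all 3 siFSCN1 libraries, and the ratio moves from at most 0.618 to at least 2.29.

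Of the 14 semaphorins tested, 7 rose, 4 fell and 3 did not pass. The summed level was 35.3 ± 0.139 FPKM in NC and 42.7 ± 0.353 FPKM in siFSCN1 (SD, n = 3 each), a ratio of 1.21 that dropped to 1.08 after TMM scaling. Only SEMA3C and SEMA4B had a mean near 10 FPKM in both groups. SEMA3C (chromosome 7, 80742538 to 80922359, minus strand), a secreted ligand that can act through both neuropilins, had 9.33, 10.56 and 9.43 FPKM in NC and 9.22, 10.78 and 11.41 in siFSCN1. The groups overlapped and the log2 fold change was -0.06 (95% interval -0.21 to 0.08, edgeR adjusted p = 0.422), with a sign that turned under other scalings.

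The class 3 ligands below it moved up more than down. SEMA3A, the ligand best known for collapsing growth cones through NRP1, had 0.60, 0.71 and 0.60 FPKM in NC and 0.93, 1.21 and 0.98 in siFSCN1 (log2 fold change 0.54, SE 0.13, edgeR adjusted p = 9.43e-04). SEMA3B, described as a tumour suppressor in lung cancer, had 2.09, 1.82 and 2.13 FPKM in NC and 3.92, 2.81 and 2.86 in siFSCN1 (log2 fold change 0.50, SE 0.10, edgeR adjusted p = 3.57e-04). Neither gene's groups overlapped, and siFSCN1 replicate 1 was the highest for SEMA3B by a wide margin. SEMA3E (chromosome 7, 83363238 to 83649139, minus strand), which binds PLXND1 without a neuropilin, had 0.22, 0.24 and 0.18 FPKM in NC and 0.47, 0.56 and 0.58 in siFSCN1. It was called higher without overlap at 2.23-fold (log2 fold change 1.16, SE 0.15, edgeR adjusted p = 1.76e-06), at 66 to 68 counts per NC library, and dropped below 2-fold once the trend of fold change with abundance was removed (0.90) and on log2(FPKM + 1) (0.34). SEMA3G, at 12 to 18 counts in NC and 3 to 8 in siFSCN1, was called lower (log2 fold change -1.53, SE 0.45, edgeR adjusted p = 0.00561), but was not tested under the stricter filter and missed 2-fold in limma on log2(FPKM + 0.1) (-0.44) and log2(FPKM + 1) (-0.06). SEMA3F did not pass.

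Class 4 semaphorins, which span the membrane and act mainly through B plexins, all passed the test apart from the untested SEMA4A, and none reached 2-fold. SEMA4B (chromosome 15, 90160604 to 90229679, plus strand), the most abundant semaphorin in siFSCN1, had 9.83, 9.68 and 9.83 FPKM in NC and 12.64, 12.62 and 13.11 in siFSCN1. The libraries of each group were tightly grouped, and the TMM-scaled log2 fold change was 0.22 (SE 0.043, edgeR adjusted p = 1.65e-04). SEMA4G (chromosome 10, 100969504 to 100985871, plus strand) had 4.86, 3.71 and 4.47 FPKM in NC and 6.48, 5.95 and 6.08 in siFSCN1, with a log2 fold change of 0.33 (SE 0.073, edgeR adjusted p = 5.31e-04). MRPL43 overlaps SEMA4G on the opposite strand, stood higher at 18.8 FPKM in NC and fell by 0.30 on the log2 scale (edgeR adjusted p = 1.32e-04).

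SEMA4C, a ligand of PLXNB2, rose by a log2 fold change of 0.25 (SE 0.071, edgeR adjusted p = 0.00417), and did not pass without NC replicate 3 (0.19, edgeR adjusted p = 0.0644). SEMA4F had 2.36, 2.41 and 2.26 FPKM in NC and 1.64, 1.63 and 1.70 in siFSCN1, and fell without overlap (log2 fold change -0.66, SE 0.081, edgeR adjusted p = 9.19e-07). SEMA4D, the ligand of PLXNB1, was low at 0.443 FPKM in NC and fell with overlapping groups (log2 fold change -0.31, SE 0.13, edgeR adjusted p = 0.0432). This fall of SEMA4D did not pass under 10 of the 17 alternatives, a miss under glmTreat not counted. The receptor and the ligand of that pair therefore did not move alike, as PLXNB1 was called higher.

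In class 6, SEMA6B (chromosome 19, 4542593 to 4581776, minus strand) had 2.26, 2.12 and 2.51 FPKM in NC and 1.88, 1.77 and 1.70 in siFSCN1. It fell by a log2 fold change of -0.53 (SE 0.10, edgeR adjusted p = 1.21e-04), without overlap. SEMA6C, at 24, 31 and 53 counts in NC and 85, 99 and 112 in siFSCN1, was called higher (log2 fold change 1.28, SE 0.22, edgeR adjusted p = 4.36e-05), and dropped below 2-fold with the abundance trend removed (0.96) and on log2(FPKM + 1) (0.32). SEMA7A, the lipid-anchored ligand of PLXNC1, had between 9 and 28 counts in NC and between 18 and 36 in siFSCN1, with a log2 fold change whose interval ran from -0.46 to 1.06.

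Neuropilins parted. NRP1 (chromosome 10, 33177492 to 33336262, minus strand), the co-receptor of SEMA3A and also of vascular endothelial growth factor A, had 6.73, 6.93 and 6.62 FPKM in NC and 11.35, 11.76 and 13.20 in siFSCN1. All silenced libraries lay above all controls, and the gene rose 1.60-fold (log2 fold change 0.68, SE 0.052, edgeR adjusted p = 2.07e-09). NRP2 had 4.10, 4.26 and 4.17 FPKM in NC and 4.07, 4.17 and 4.35 in siFSCN1, levels that overlapped. On the TMM scale NRP2 fell slightly (log2 fold change -0.16, SE 0.048, edgeR adjusted p = 0.00678), a fall that did not pass with upper quartile scaling (-0.04), library totals (0.03) or either limma fit on FPKM (0.0064 and 0.0053). The ratio of NRP1 to NRP2 within a library, free of scaling, was 1.64, 1.63 and 1.59 in NC and 2.79, 2.82 and 3.03 in siFSCN1. The balance of class 3 semaphorins to neuropilins went from 1.24 ± 0.0324 to 0.997 ± 0.0444 (SD, n = 3 each, exact permutation p = 0.1).

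**Figure D4:**
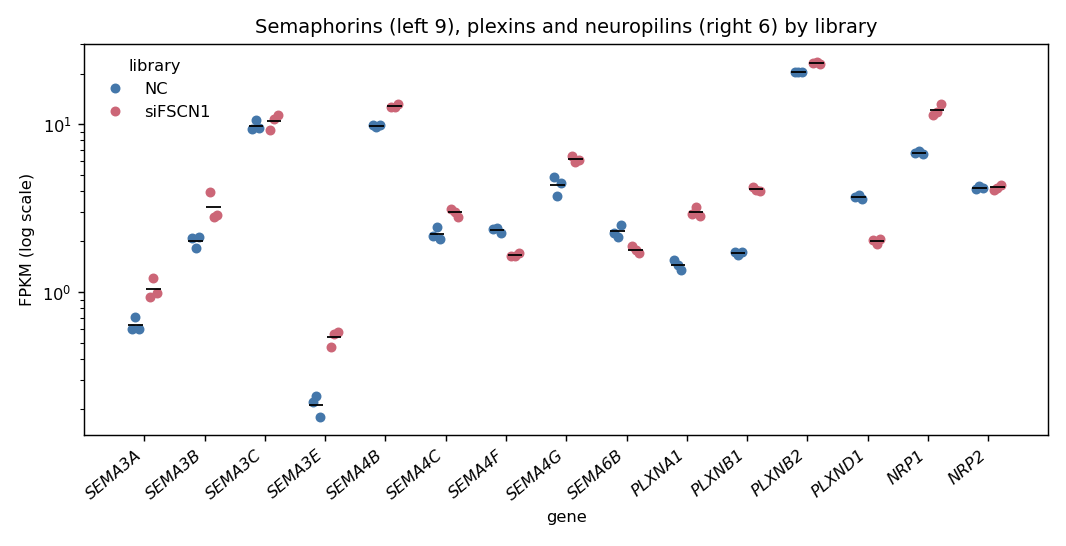
FPKM (log axis) in each of the 6 libraries for 9 semaphorins, 4 plexins and both neuropilins, with a black line at each group mean of 3 libraries. PLXNB1, PLXNA1, NRP1 and SEMA3E lie higher in siFSCN1, PLXND1 and SEMA4F lie lower, and SEMA3C and NRP2 overlap. The small upward gap of PLXNB2 is of the size of the median shift between FPKM and the tested scale.

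Plexins, the signalling receptors, changed in makeup around a receptor that did not pass. PLXNB2 (chromosome 22, 50274979 to 50307646, minus strand), a receptor of SEMA4C, had 20.57, 20.38 and 20.40 FPKM in NC and 22.99, 23.54 and 22.81 in siFSCN1. On the TMM scale its log2 fold change was 0.01 (95% interval -0.07 to 0.09, edgeR adjusted p = 0.811). The call depended on the scaling, since PLXNB2 passed as higher with upper quartile scaling (0.13, edgeR adjusted p = 0.00685), library totals (0.20, edgeR adjusted p = 1.04e-04) and both limma fits on FPKM (0.18 and 0.17), and its sign turned with RLE scaling and DESeq2. It provided 72.1% ± 0.333 of all plexin FPKM in NC and 68.3% ± 0.460 in siFSCN1 (SD, n = 3 each).

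PLXNB1 (ENSG00000164050.13, chromosome 3, 48403854 to 48430086, minus strand), which can couple to the receptor kinase MET, had 1.74, 1.65 and 1.74 FPKM in NC and 4.22, 4.08 and 4.01 in siFSCN1. The values were tight within each group and far apart between them, a 2.14-fold rise (log2 fold change 1.10, SE 0.051, edgeR adjusted p = 1.78e-12). PLXND1 (ENSG00000004399.13, chromosome 3, 129555214 to 129606676, minus strand), the receptor of SEMA3E, had 3.69, 3.79 and 3.58 FPKM in NC and 2.03, 1.93 and 2.08 in siFSCN1. It fell 2.05-fold without overlap (log2 fold change -1.04, SE 0.052, edgeR adjusted p = 5.41e-12), while its ligand SEMA3E was called higher. The order of these receptors thus changed, with PLXND1 second among plexins in NC, at 13% of plexin FPKM against 6.03% for PLXNB1, and PLXNB1 second in siFSCN1, at 12.1% against 5.95% for PLXND1. PLXND1 lay close to the 2-fold limit and dropped below it under upper quartile scaling (-0.92) and library totals (-0.85).

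A plexins, the usual signalling partners of neuropilins, rose in all 3 tested cases. PLXNA1 (chromosome 3, 126982693 to 127037389, plus strand) had 1.56, 1.45 and 1.36 FPKM in NC and 2.93, 3.22 and 2.85 in siFSCN1, without overlap (log2 fold change 0.88, SE 0.065, edgeR adjusted p = 9.76e-10). PLXNA2 rose by a log2 fold change of 0.42 (SE 0.13, edgeR adjusted p = 0.00774), which dropped to 0.27 and did not pass without NC replicate 1 (edgeR adjusted p = 0.0634). PLXNA3, with 95, 69 and 79 counts in NC and 216, 159 and 196 in siFSCN1, was called higher (log2 fold change 1.04, SE 0.15, edgeR adjusted p = 6.55e-06), but fell under 2-fold without NC replicate 3 (0.92) or without siFSCN1 replicate 1 (0.94). LAGE3 overlaps PLXNA3 on the opposite strand, stood far higher at 40.6 FPKM in NC, and moved the other way (log2 fold change -0.60, edgeR adjusted p = 2.23e-07). Summed, the A plexins had 2.08, 2.08 and 1.93 FPKM in NC and 3.99, 4.13 and 3.86 FPKM in siFSCN1. PLXNC1 (chromosome 12, 94148577 to 94307675, plus strand), the receptor of SEMA7A, lay between 0.35 and 0.48 FPKM in all libraries, with overlapping groups and a log2 fold change of 0.06 (95% interval -0.20 to 0.33). PLXNB3 did not pass.

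The 11 members that were not tested had too few counts. They were EPHA3, EPHA5, EPHA6, EPHA7, EPHA8, EPHB1, PLXNA4, SEMA3D, SEMA4A, SEMA5B and SEMA6A, and no library held more than 16 counts of any of them. Of these, 9 had 10 or fewer counts in every library, and EPHA8 and SEMA5B had no row in the FPKM table of 29899 genes. SEMA4A had 3, 0 and 1 counts in NC and 4, 16 and 8 in siFSCN1. SEMA4A, which the filter left out, was called higher with no filter (log2 fold change 2.52, edgeR adjusted p = 0.00676) and by DESeq2 (2.61, adjusted p = 0.0423), on no more than 3 counts in any NC library. For the other 10 no call was made under any setting that tested them.

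The intracellular side was followed with a list of 61 gene symbols of effectors of these receptors. No row carried the symbols GRB4 and SLAP, 59 symbols had a row and 57 were tested. Of these, 20 rose (35.1%), 17 fell (29.8%) and 20 did not pass, against 35.1% and 33.2% of all genes tested. The median log2 fold change was 0.04, beside 0.03 for all genes. Those called at 2-fold were 3 higher (5.26%) and 1 lower (1.75%), below the shares of all genes given above. RND1, which binds the cytoplasmic part of plexins, rose from a mean of 1.94 to 5.10 FPKM (log2 fold change 1.22, SE 0.077, edgeR adjusted p = 1.11e-10). Below the level set for naming, and named after their values were seen, were MICAL1, an oxidase of actin that acts downstream of plexins (log2 fold change 1.11, SE 0.098, edgeR adjusted p = 1.20e-08), and GRIP1, an adaptor that binds B ephrins (1.16, SE 0.19, edgeR adjusted p = 3.64e-05). LIMK1, the kinase that inactivates the actin-severing protein cofilin, was the called member on the lower side, also below that level and named after its values were seen, from 4.61 to 2.14 FPKM (log2 fold change -1.28, SE 0.071, edgeR adjusted p = 1.88e-11).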

How the data were processed

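For the same 6 libraries the authors deposited raw gene counts and, in a second table, FPKM values. According to the study's methods trimming used the FASTX Toolkit, HISAT2 aligned the reads to GRCh38, and only uniquely mapped reads were counted, whereas the submitters' processing notes list TopHat2 and bcl2fastq. The counting program, strand setting and annotation release are not given in the sources used here. Per the labels, the titles of the samples gave the groups and replicate numbers.

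Counts were filtered with filterByExpr, scaled by TMM and compared with edgeR 4.0.16 (R 4.3.3), quasi-likelihood test, no covariate, Benjamini-Hochberg adjustment over 17076 genes. Standard errors were the log2 fold change over the root of F. The authors used DESeq2, run here (1.42.0) as an alternative. Sums and ratios of the deposited FPKM were compared by exact two-sided permutation over libraries (scipy 1.17.1). The test was tried on simulated counts first. Positions came from GENCODE v44, in which 99.7% of the 30230 identifiers and all 51 members were found. Promoters came from RefSeq, GRCh38.p14.

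Values per library were due for members called at 2-fold with at least 0.5 FPKM, members of at least 5 FPKM in a group, and the most abundant member of each subfamily. Of the pathway lists, called genes of at least 5 FPKM were due. The other passing members were added. The members and lists were chosen with earlier results of these data known. Same-numbered libraries did not deviate together (correlations -0.03, 0.04 and -0.08), and the main test did not pair them. These correlations cannot show whether same-numbered libraries were prepared together. A chi-square of counts per degree of freedom was 3.10 to 8.14 within groups and 107 to 131 between them, so no library was a copy of another. The alternatives were RLE, upper quartile and library-total scaling, DESeq2, glmTreat, no filter, a stricter filter, a replicate block, limma 3.58.1 on log2(FPKM + 0.1) and log2(FPKM + 1), removal of the trend of fold change with abundance, and leaving out each library. Removal of the trend changed the fold changes only and kept the main p-values, so it could not change whether a gene passed.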

Additional observations from a re-analysis of the deposited data

How the results depend on the processing

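The calls of EFNA1 (log2 fold change 1.36 to 1.62) and EPHA2 (-1.53 to -1.25) held under all 17 alternatives. The replicate block left the counts as they were, with 5 members called higher and 4 lower and 15 and 12 passing. Apart from glmTreat, the passing members EFNA3, SEMA4D, NRP2, PLXNA2 and SEMA4C each missed an adjusted p of 0.05 under at least 1 alternative. Tested against a 2-fold change with glmTreat, 1 member was called higher and 1 lower, namely EFNA1 and EPHA2. With limma 1 member was called lower on log2(FPKM + 0.1), and 1 higher and 1 lower on log2(FPKM + 1). With the abundance trend removed 2 were called higher, as PLXNA3, SEMA3E and SEMA6C lost their calls. SEMA3G was not tested under the stricter filter, which left 3 called lower. On log2(FPKM + 1) PLXNB1 (0.91) also missed 2-fold. PLXND1 missed it under upper quartile scaling, library totals, the trend removal (-0.97) and both limma fits, while PLXNA1 reached it with library totals (1.07) and the untested SEMA4A with no filter or DESeq2. Leaving out 1 library gave 4 or 5 members called higher and 4 lower, and a FSCN1 log2 fold change of -4.11 to -3.77.

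The family ratios of summed FPKM scale with the library. That of semaphorins was 1.18 with each library's FPKM scaled to the same sum, 1.08 after TMM and 1.17 without SEMA4B. That of plexins and neuropilins was 1.27 as deposited, 1.24 with equal sums, 1.14 after TMM and 1.43 without PLXNB2. That of ephrins was 1.29 after TMM and 1.25 without EFNA5. That of Eph receptors was 0.564 after TMM. Without EPHA2 it was 1.07 in the deposited FPKM, which is below the median factor of 1.12 between the scales. No value without EPHA2 after TMM is given here, so a reversal on the tested scale is not shown.

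None of the genes that changed sign was called at 2-fold. NRP2 turned to 0.0293 with library totals, 0.0064 and 0.0053 with limma and 0.0012 without the trend. PLXNB2 turned to -0.0073 with RLE and -0.0185 with DESeq2, and ranged from -0.0187 to 0.0122 without 1 library. PLXNC1 and SEMA7A both turned to -0.16 without the trend, and PLXNC1 ranged from -0.021 to 0.17 without 1 library. SEMA3C turned to 0.0533 with upper quartile scaling, 0.12 with library totals, 0.10 and 0.0875 with limma and 0.10 without the trend, and ranged from -0.14 to 0.0126 without 1 library. The cause of these changes was not tested beyond the scalings themselves, which moved the median of all genes from 0.03 to as much as 0.22.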

Other observations

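Receptors and ligands that share partners with these families, or that form the other guidance pathways, were followed with a list of 38 genes, of which 35 had a row and 23 were tested. Of these, 12 rose, 5 fell and 6 did not pass in edgeR's test. That is 52.2% and 21.7%, against 35.1% and 33.2% of all genes tested. The median log2 fold change was 0.20, beside 0.03 for all genes, and a movement of the list as a set was not tested. At 2-fold 3 were called higher and 3 lower, 13% in each direction, against 11.7% and 4.85% of all genes. All 6 were under 1 FPKM and are named after their values were seen. They were NTN5, VEGFD and UNC5D on the higher side and PGF, L1CAM and UNC5B on the lower side. PGF, a growth factor of the VEGF family, had a log2 fold change of -1.91 (SE 0.22, edgeR adjusted p = 3.26e-07), and L1CAM, an adhesion molecule that binds NRP1, one of -1.14 (SE 0.19, edgeR adjusted p = 3.42e-05).

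Some genes of this list under 2-fold were also singled out after their values were seen, and they are not its most abundant. NTN4, a netrin of basement membranes, went from a mean of 5.53 to 11 FPKM (log2 fold change 0.82, SE 0.072, edgeR adjusted p = 1.09e-08). VEGFA, which binds NRP1, went from 1.27 to 2.36 FPKM (log2 fold change 0.73, SE 0.063, edgeR adjusted p = 9.37e-09). VEGFB, at 28.3 FPKM in NC (-0.07, edgeR adjusted p = 0.204), and VEGFC, at 2.33 FPKM in NC (-0.16, edgeR adjusted p = 0.192), did not pass. ERBB2, at 3.24 FPKM in NC, fell (-0.31, edgeR adjusted p = 1.06e-04). ITGB1, an integrin chain that can serve as a receptor of SEMA7A, rose by a log2 fold change of 0.33 (SE 0.049, edgeR adjusted p = 8.50e-06). MET, a partner of PLXNB1, stood at 17.3 FPKM in NC and 17.6 in siFSCN1, with overlapping groups. On the TMM scale its log2 fold change was negative (-0.14, SE 0.06) and did not pass (edgeR adjusted p = 0.0541).

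Of the effectors under 2-fold, and again picked after their values were seen, VAV3 (log2 fold change 0.76), an exchange factor downstream of Eph receptors, and ADAM10 (0.48), the protease that cleaves A ephrins, rose. CDK5 (-0.60), a kinase in SEMA3A signalling, and CFL1 (-0.37), the gene of cofilin, fell.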
